A study of Homo sapiens with 16 samples.

Results

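Genes of the transforming growth factor beta (TGF-beta) and bone morphogenetic protein (BMP) pathway were followed in MDA-MB-231, a human cell line from a triple-negative breast tumour. The 42 genes, out of 57500 in the count table, were chosen by symbol from a list of ligands, receptors, SMADs, feedback genes and targets, and 42 of them were found and passed the filter on low counts that left 15566 genes. Poly(A) RNA was sequenced in 4 groups of 4 libraries. These were shAKAP2 cells with doxycycline, shAKAP2 cells without it, shScramble cells with doxycycline, and shScramble cells without it. The drug turns on a short hairpin RNA, which is directed against AKAP2 in one line and is a scrambled control in the other, so that every group carries a hairpin construct. AKAP2 is an anchoring scaffold for protein kinase A, which the series places at focal adhesions. The sources used here do not give the dose, duration of treatment or hairpin sequence, nor whether a line is 1 clone. Replicates are called biological in the labels but no separate cultures are named, so a p-value measures only the spread between the libraries at hand, which may be technical.

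TGF-beta, activin and BMP ligands bind pairs of type I and type II serine/threonine kinase receptors, which phosphorylate receptor SMADs. SMAD2 and SMAD3 carry TGF-beta and activin signals, SMAD1 and SMAD5 carry BMP signals, and both kinds enter the nucleus with SMAD4. Inhibitory SMADs, the ubiquitin ligases SMURF1 and SMURF2, SKI and SKIL, PMEPA1 and the decoy receptor BAMBI damp the pathway, several of them as its own targets, and ID2 and ID3 are classic BMP targets. In breast cancer the pathway is known both for restraining growth and for driving invasion and metastasis, and this cell line is widely used to study it.

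Levels are CPM, counts scaled to a common library size, given per library or as mean ± SD over 4 libraries, and a gene is called at an edgeR adjusted p under 0.05 over all genes tested. Total counts ran from 24482997 to 37472525 per library. AKAP2 had 4 counts in all 4 induced shAKAP2 libraries together, against 168 in the uninduced ones (log2 -5.06, SE 0.577, adjusted p = 1.25e-06), and 212 and 144 counts in shScramble cells with and without doxycycline (log2 0.58, adjusted p = 0.706). Of the markers of this line, VIM (vimentin) and CD44 averaged 1520 ± 67.2 and 1090 ± 53.8 CPM in induced shAKAP2 cells, and the oestrogen receptor gene ESR1 had 0 counts there. The 5 breast epithelial markers summed to 953 to 1520 CPM over all libraries, while CDH1 among them (the epithelial cadherin) had group means of 0.0751 to 0.948 CPM. Their sum was 1270 to 1420 CPM in induced and 1050 to 1100 CPM in uninduced shAKAP2 libraries, with 2 called higher, 0 lower and none at 0. The mesenchymal sum was 4270 to 4640 CPM in uninduced shAKAP2 libraries, above the induced range, with 0 called higher and 1 lower on induction. The luminal or receptor-positive sum was 70.2 to 80.3 CPM in uninduced shAKAP2 libraries, with 0 called higher and 1 lower of 2 tested. The part of these shifts in the results below was not tested. The replicate 1 libraries of both shScramble groups lay farthest from their groups. The SD over genes of their log2 deviation was 0.46 with and 0.422 without doxycycline, against 0.288 to 0.351 in the other 14 libraries. Calls were therefore also made without both of them.

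With the AKAP2 hairpin induced, members were called in every role of the pathway, at a share not far above that of all genes. Of the 2 BMP targets among the members, only ID3 was called, and it rose, while ID1, which is no member, was called lower. For some of the called members the difference from the shScramble response was not called, as given below. With against without doxycycline in shAKAP2 cells, 4 members were higher (TGFB2, ACVR2A, BAMBI and ID3) and 11 were lower (TGFB1, BMP4, TGFBR3, BMPR2, GREM1, NOG, SMAD2, SMAD3, SMURF2, SKI and PMEPA1). That is 35.7% of the 42, where 28.3% of all genes tested were called, 13.1% higher and 15.2% lower. The called members with a log2 change under 0.5 in size (TGFB1, TGFB2, BMPR2, NOG, SMAD2 and SKI) are described because their values were seen to pass. Groups that did not overlap were seen in 5 members higher with the drug (18.4% of all genes) and 11 lower (18.1%). The median log2 fold change was -0.07 over the members and 0.00 over all genes, and the median size regardless of sign was 0.27 and 0.25. Mitochondrially encoded genes took 1.02% to 2.04% of the counts in induced and 1.86% to 2.38% in uninduced shAKAP2 libraries, and the part of this in the calls was not tested. Without both shScramble replicate 1 libraries, which enter this comparison only through the shared estimate of spread, ACVR1B (log2 0.27, adjusted p = 0.0283), LTBP3 (0.43, adjusted p = 0.0128) and SKIL (0.28, adjusted p = 0.0233) were also called higher and SMURF1 (-0.18, adjusted p = 0.0284) lower. In bulk RNA, fewer cells that express a gene and less RNA per cell cannot be told apart.

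**Figure D1:**
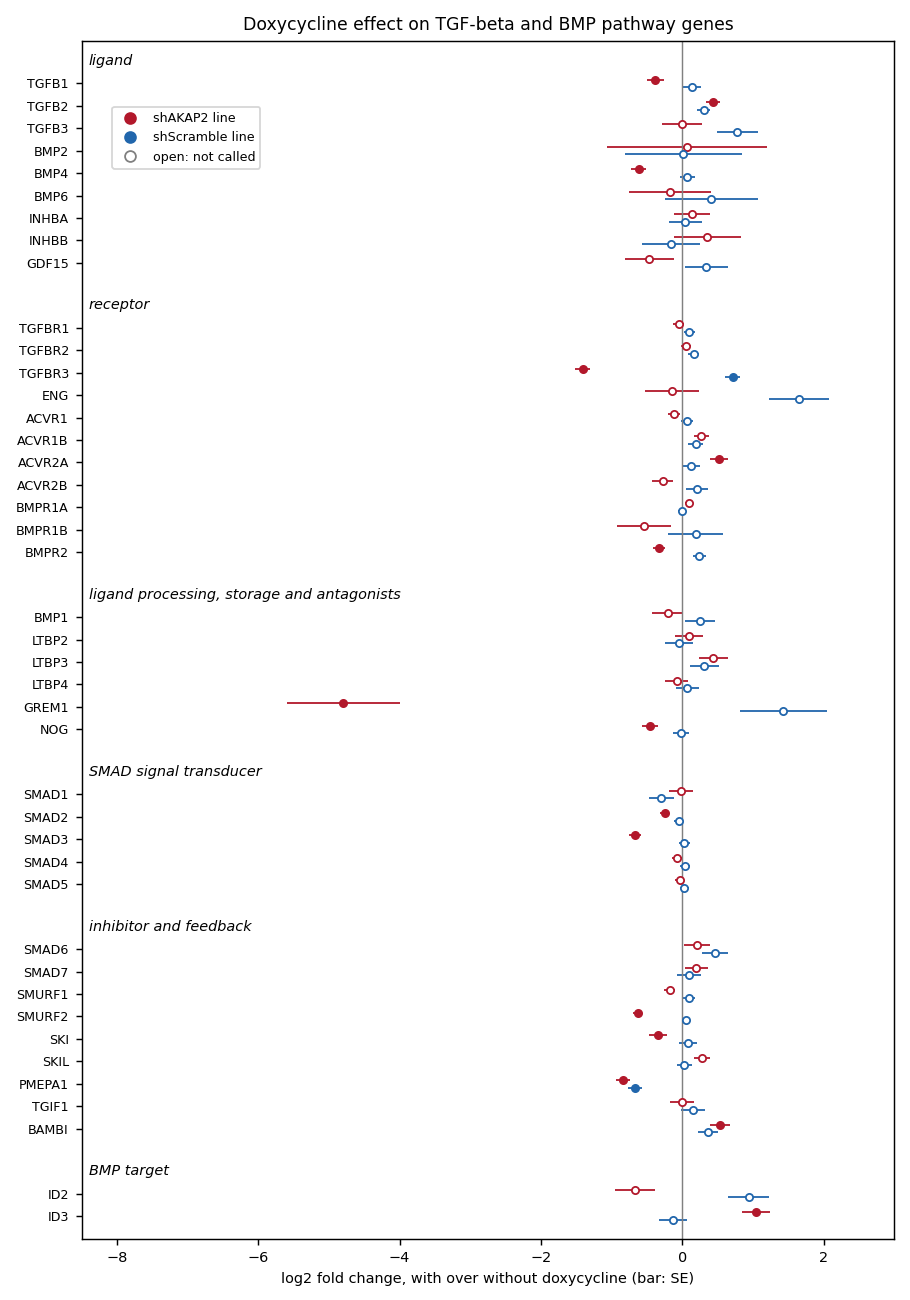
Doxycycline effect (log2 fold change, horizontal axis, bar: SE) on each of the 42 members in the shAKAP2 line (red) and the shScramble line (blue), by role; filled points are called and open points are not. TGFBR3 is filled on opposite sides of 0 in the lines, at -1.41 and 0.71, PMEPA1 is filled on the same side, at -0.84 and -0.67, and GREM1 lies farthest out, at -4.80 in shAKAP2.

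Among the ligands, BMP4, TGFB1 and TGFB2 were abundant and changed. BMP4, a BMP ligand, had 155, 158, 161 and 183 CPM in induced shAKAP2 libraries, against 248, 258, 226 and 275 CPM in uninduced ones. The 4 induced libraries all lay under the uninduced ones, and the gene fell by 0.62 on the log2 scale (SE 0.104, adjusted p = 0.000152). In shScramble it averaged 339 CPM with and 322 CPM without doxycycline (log2 0.07, adjusted p = 0.912), and the difference between the lines' responses was -0.69 (SE 0.147, adjusted p = 0.00252).

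TGFB1, which encodes the most studied TGF-beta isoform, had 38.2, 35.1, 39.7 and 43.5 CPM in induced libraries and 54.5, 50.8, 47.6 and 50.9 CPM in uninduced shAKAP2 libraries. The groups did not overlap, but the call was close to the threshold (log2 -0.38, SE 0.126, adjusted p = 0.0284). It was lost when any of 6 single shAKAP2 libraries was left out, with an adjusted p of up to 0.0907. TGFB2, the isoform that needs a co-receptor for high-affinity binding, went the other way, with 136, 130, 128 and 130 CPM in induced and 94.4, 94.2, 90.5 and 109 CPM in uninduced shAKAP2 libraries. Again the groups were apart (log2 0.43, SE 0.0969, adjusted p = 0.00198). In shScramble TGFB2 averaged 148 and 120 CPM with and without doxycycline, a log2 difference of 0.30 that was not called (adjusted p = 0.196), but was 0.44 (adjusted p = 9.36e-05) without the replicate 1 libraries. The difference between the lines' responses was 0.13 for TGFB2 (SE 0.137, adjusted p = 0.573; -0.01 without the replicate 1 libraries), so the lines' responses were not shown to differ.

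The remaining ligands were scarce, and none was called in either line's doxycycline response. TGFB3, BMP2, BMP6, the activin subunit genes INHBA and INHBB, and GDF15, a stress-induced divergent family member, averaged 0.101 CPM (BMP2) to 2.54 CPM (TGFB3) in induced shAKAP2 cells, and their log2 changes ran from -0.47 for GDF15 to 0.35 for INHBB. BMP2 had 0 to 8 counts per library in shAKAP2 cells, too few for a change to be detected at this depth.

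Of the 11 receptor genes, TGFBR3 had the largest difference between the lines' responses. It encodes betaglycan, a co-receptor that presents TGF-beta2 to the signalling receptors. It had 11.9, 9.79, 12.1 and 11.9 CPM in induced shAKAP2 libraries, against 30.2, 28.5, 29.1 and 33.9 CPM in uninduced ones. In shScramble cells it had 33.4, 41.8, 49.4 and 41.7 CPM with doxycycline, against 25.5, 26.0, 26.9 and 23.1 CPM without it. Neither pair of groups overlapped, and the directions were opposite. TGFBR3 fell 2.67-fold in shAKAP2 cells (log2 -1.41, SE 0.11, adjusted p = 5.37e-09) and rose in shScramble cells (log2 0.71, SE 0.105, adjusted p = 0.000711; 0.81 without the replicate 1 libraries). The difference between these responses was -2.13 (SE 0.152, adjusted p = 4.5e-09), and it ranged from -2.23 to -2.03 over the alternatives, all of them called.

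The signalling receptors changed less. ACVR2A, a type II receptor for activins, had 16.4, 16.5, 21.0 and 19.3 CPM in induced and 12.9, 13.6, 12.2 and 12.2 CPM in uninduced shAKAP2 cells. It was higher in each induced library (log2 0.52, SE 0.126, adjusted p = 0.00362). BMPR2, the type II BMP receptor, had 148, 127, 121 and 141 CPM in induced and 171, 174, 159 and 171 CPM in uninduced shAKAP2 libraries, which did not overlap (log2 -0.33, SE 0.088, adjusted p = 0.00743). In shScramble cells BMPR2 averaged 146 and 124 CPM with and without the drug, not called (log2 0.24, adjusted p = 0.305), and the lines' responses differed by -0.57 (SE 0.124, adjusted p = 0.00289).

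TGFBR1 and TGFBR2, the receptor pair for TGF-beta, were not called in the shAKAP2 line (log2 -0.05 and 0.05, SE 0.0757 and 0.0745). Their 95% intervals ran from -0.22 to 0.11 and from -0.11 to 0.21. Per kilobase of annotated exon, TGFBR2 was the most abundant receptor in induced shAKAP2 cells at 57.0 CPM per kb, followed by TGFBR1 at 24 and BMPR2 at 11.3. Betaglycan, at 1.31 there, stood at 3.49 in uninduced shAKAP2 cells, and BMPR1B and ENG were lowest, at 0.135 and 0.232 CPM per kb. ACVR1, ACVR1B, ACVR2B, BMPR1A and BMPR1B were not called in either line's response, with log2 changes in shAKAP2 from -0.54 (BMPR1B) to 0.27 (ACVR1B). ENG, which encodes the co-receptor endoglin, was at 0.913 ± 0.347 CPM in induced and 1.02 ± 0.149 CPM in uninduced shAKAP2 cells, against 0.865 ± 0.389 and 0.268 ± 0.0849 CPM in shScramble cells with and without doxycycline. Its responses differed by -1.80 (SE 0.569, adjusted p = 0.0321), a call that was lost in 9 of 22 alternatives.

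Of the genes for proteins that process, store or block ligands, both antagonists fell. GREM1, which encodes the BMP antagonist gremlin, had 3, 0, 0 and 0 counts in induced shAKAP2 libraries, against 22, 17, 29 and 42 in uninduced ones. That left 3.06% of the uninduced level (exact 95% interval for counting error 0.622% to 9.18%), and the gene was called (log2 -4.80, SE 0.8, adjusted p = 0.000119), although the fitted size depends on how a group with 3 counts is handled and was -7.74 without induced replicate 1, which held all 3. In shScramble cells GREM1 had 6, 13, 11 and 36 counts with doxycycline and 10, 2, 7 and 5 without it, which overlap and were not called (log2 1.43, adjusted p = 0.45). The lines' responses differed (log2 -6.22, SE 1.02, adjusted p = 0.0002). GREM1 is abundant in fibroblasts, and the summed level of 6 fibroblast markers was 19.3 to 21.6 CPM in induced and 21.1 to 30.7 CPM in uninduced shAKAP2 libraries, with 0 members higher, 2 lower and none at 0. The part of this in the GREM1 result was not tested.

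NOG, which encodes the BMP antagonist noggin, had 19.3, 20.9, 23.5 and 20.5 CPM in induced and 29.4, 24.7, 33.6 and 28.1 CPM in uninduced shAKAP2 libraries, with no overlap (log2 -0.46, SE 0.116, adjusted p = 0.00498). In shScramble it averaged 37 and 37.7 CPM. The difference between the lines' responses was -0.44 and missed the threshold (adjusted p = 0.0693), while without the replicate 1 libraries it was -0.47 and passed (adjusted p = 0.00838). BMP1, a procollagen protease that also cleaves the BMP antagonist chordin, and LTBP2, LTBP3 and LTBP4 of the latent TGF-beta binding protein family were not called in shAKAP2 (log2 -0.21, 0.10, 0.44 and -0.08).

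Within the SMADs, SMAD2 and SMAD3 of the TGF-beta branch fell, and SMAD1 and SMAD5 of the BMP branch were not called. SMAD3 had 112, 94.1, 93.2 and 99.8 CPM in induced shAKAP2 libraries and 160, 161, 155 and 157 CPM in uninduced ones. The groups were well separated, and the gene fell 1.59-fold (log2 -0.67, SE 0.0797, adjusted p = 2.22e-06). In shScramble cells it averaged 150 and 146 CPM with and without doxycycline (log2 0.03, adjusted p = 0.962), and the lines' responses differed by -0.70 (SE 0.112, adjusted p = 0.000161). SMAD2 fell less, to 103, 103, 106 and 106 CPM in induced libraries, against 127, 123, 129 and 118 CPM in uninduced shAKAP2 libraries (log2 -0.25, SE 0.0626, adjusted p = 0.00489), and its difference from the shScramble response was not called (-0.20, adjusted p = 0.142). SMAD1, SMAD4 and SMAD5 had log2 changes of -0.02, -0.07 and -0.04 in shAKAP2. The 95% intervals were -0.23 to 0.10 for SMAD4 and -0.19 to 0.10 for SMAD5, and a wider -0.39 to 0.35 for the scarcer SMAD1.

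The inhibitors and feedback genes split. SMURF2, a ubiquitin ligase that targets receptors and SMADs, had 245, 237, 234 and 244 CPM in induced and 380, 364, 380 and 363 CPM in uninduced shAKAP2 libraries. These groups did not overlap (log2 -0.63, SE 0.0612, adjusted p = 1.29e-07). In shScramble SMURF2 averaged 339 and 328 CPM, and the lines' responses differed by -0.68 (SE 0.0862, adjusted p = 1.15e-05). Its relative SMURF1 was not called (log2 -0.18, adjusted p = 0.126), but was without both shScramble replicate 1 libraries (adjusted p = 0.0284).

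BAMBI, a kinase-less receptor that blocks ligand signalling, was higher in every induced shAKAP2 library, at 7.78, 7.08, 8.61 and 7.72 CPM, against 5.36, 5.07, 6.47 and 4.78 CPM in uninduced ones (log2 0.53, SE 0.14, adjusted p = 0.00728). It averaged 8.89 and 6.91 CPM in shScramble with and without doxycycline, which was not called (log2 0.36, adjusted p = 0.337), and the lines' responses were not shown to differ (0.16, SE 0.196, adjusted p = 0.633). SKI, which represses SMAD transcription, had 81.1, 57.5, 56.8 and 70.3 CPM in induced and 93.1, 87.8, 79.3 and 79.3 CPM in uninduced shAKAP2 libraries, with 1 induced library inside the uninduced range. The call (log2 -0.35, SE 0.127, adjusted p = 0.0434) was lost in 13 of 23 alternatives. SKIL, SMAD6, SMAD7 and TGIF1 were not called in either line's response, with log2 changes in shAKAP2 of 0.28, 0.21, 0.20 and -0.01.

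PMEPA1, a TGF-beta-induced gene whose product limits SMAD2 and SMAD3 phosphorylation, fell in both lines. It had 20.6, 18.9, 22.8 and 19.9 CPM in induced and 38.7, 39.9, 34.1 and 34.3 CPM in uninduced shAKAP2 libraries. In shScramble libraries it had 23.2, 21.7, 24.1 and 22.3 CPM with doxycycline, against 41.2, 41.0, 33.5 and 29.8 CPM without it. Neither pair overlapped. The log2 change was -0.84 in shAKAP2 (SE 0.102, adjusted p = 2.9e-06) and -0.67 in shScramble (SE 0.101, adjusted p = 0.00083; -0.61 without the replicate 1 libraries), and the difference between them was -0.16 with a 95% interval of -0.48 to 0.15 (adjusted p = 0.486).

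The ID genes, which encode inhibitors of basic helix-loop-helix factors, did not move as one. ID3 had 53.8, 43.2, 52.6 and 32.7 CPM in induced shAKAP2 libraries, against 26.1, 22.7, 20.4 and 19.6 CPM in uninduced ones. All induced libraries were higher, and the gene rose 2.05-fold (log2 1.04, SE 0.195, adjusted p = 0.000652). In shScramble it averaged 16.3 and 17.9 CPM with and without the drug (log2 -0.13, adjusted p = 0.921), and the lines' responses differed by 1.17 (SE 0.278, adjusted p = 0.00736). ID2, at 1.19, 1.72, 1.69 and 0.879 CPM in induced and 2.95, 2.19, 1.71 and 1.88 CPM in uninduced shAKAP2 libraries, was not called there (log2 -0.67, SE 0.289, adjusted p = 0.0922). In shScramble ID2 had 1.6, 2.55, 1.57 and 2.65 CPM with and 0.886, 1.51, 1.00 and 0.988 CPM without doxycycline, which did not overlap but were not called either (log2 0.94, adjusted p = 0.177). The difference between the responses was called, at -1.61 (SE 0.411, adjusted p = 0.00933). ID1, which is no member and was chosen after its values were seen, was called lower in the shAKAP2 response (log2 -0.37, adjusted p = 0.0437). It averaged 52.8 ± 8.75 CPM in induced and 68.4 ± 11.4 CPM in uninduced shAKAP2 cells, with overlapping libraries.

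**Figure D2:**
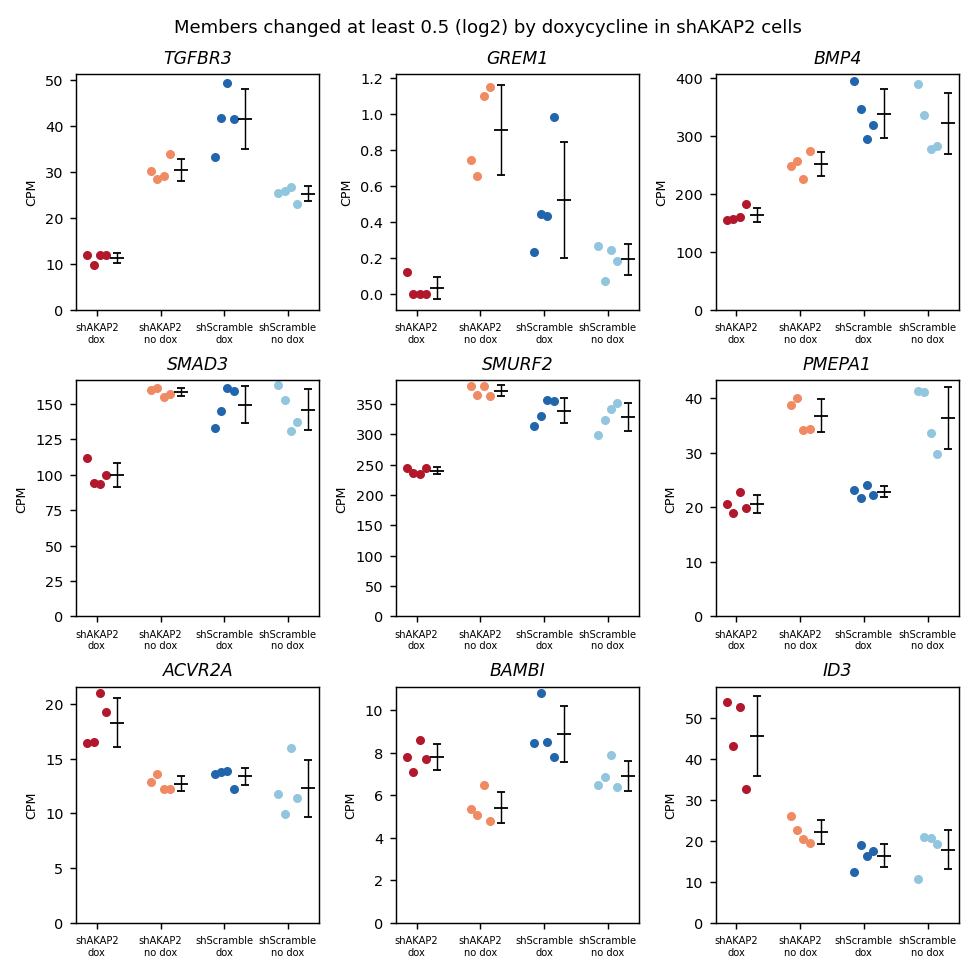
CPM in every library (points) and mean with SD (black) for the 9 members called in the shAKAP2 doxycycline response with a log2 change of at least 0.5, in the 4 groups. SMAD3 and SMURF2 are lowest in induced shAKAP2 cells, at 99.7 and 240 CPM on average, PMEPA1 is low in both induced groups, and TGFBR3 is low in induced shAKAP2 and high in induced shScramble.

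In shScramble cells, where doxycycline turns on the control hairpin, 2 of the 42 members were called, TGFBR3 higher and PMEPA1 lower, or 4.76%, where 1.08% of all genes tested were called, 0.559% higher and 0.52% lower. Groups that did not overlap were seen in 5 members that were higher with the drug (2.29% of all genes) and in 1 that was lower (2.15%). The median log2 change was 0.10 for the members and 0.00 for all genes. Without both replicate 1 libraries 8 members were called. TGFB2 (0.44), TGFBR2 (0.27), TGFBR3 (0.81), ENG (1.75), BMPR2 (0.35), BMP1 (0.46) and LTBP3 (0.53) were then higher on the log2 scale, and PMEPA1 (-0.61) was lower. Without the uninduced replicate 1 library alone, 6 were called. Summed markers of other cell types were higher with the drug in this line. The 6 fibroblast markers summed to 45.7 to 69.7 CPM with and 24 to 46.3 CPM without doxycycline, with 1 called higher, 0 lower and none at 0. The 4 endothelial markers summed to 10.4 to 13.8 CPM with and 5.20 to 9.66 CPM without it, with none called and CDH5 at 0 without the drug. The 6 blood cell markers summed to 1.25 to 4.55 CPM with and 0.549 to 1.07 CPM without it, with 2 called higher and with CD3E at 0 in both groups. Betaglycan and endoglin are also made by fibroblasts and endothelium, and the part of these cells in the result was not tested.

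The difference between the lines' doxycycline responses asks which members responded differently in the 2 lines, and 10 passed, 1 higher (ID3) and 9 lower (TGFB1, BMP4, TGFBR3, ENG, BMPR2, GREM1, SMAD3, SMURF2 and ID2). That is 23.8% of the members, where 18% of all genes tested were called, 7.53% higher and 10.5% lower. TGFB1 passed narrowly (-0.52, SE 0.177, adjusted p = 0.048) and lost the call in 12 of 22 alternatives. Without both shScramble replicate 1 libraries 18 members were called, the 10 above together with TGFBR1, TGFBR2, ACVR2B, BMP1, LTBP4, NOG, SMURF1 and SKI, all lower. Among the 15 members called in the shAKAP2 response, the difference was not called for TGFB2, ACVR2A, NOG, SMAD2, SKI, PMEPA1 and BAMBI.

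A sequence feature was set beside these changes. The 7-letter word GAACACA was searched in 3' untranslated regions (3' UTRs). It was chosen because earlier results of these data had shown it to be frequent in genes that fell in the shAKAP2 line, so its frequency there is a description. Its relation to the hairpin was not tested. In the longest annotated 3' UTR of GENCODE release 29, the word stood in 669 of 2170 genes lower in that line (30.8%). It stood in 5.54% of the 1913 that were higher and in 9.84% of the 8739 without a call. Of the members, 9 of 42 held it, or 21.4%, against 12.8% of all genes tested that have such a region. They were 3 of the 11 lower members (GREM1, with 2 sites, SMAD3 and BMPR2), 0 of the 4 higher ones, and 6 of the 27 not called (TGFB3, BMP2, ACVR1, ACVR2B, BMP1 and SMAD4). A longer region has more places for the word, and these shares were not adjusted for length. Whether the cells use the longest annotated region was not tested. The sites of the lower members are shown, with those of SMAD4 and ACVR1, which hold the word and were not called. The word is in capitals, and each line is 27 bases of the transcript strand, 5′ to 3′.

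GREM1 site 1: gccaataccaGAACACAggctgatgct
GREM1 site 2: tggaactgaaGAACACAacaactgaac
SMAD3: gccttttgcaGAACACAgtagacagaa
BMPR2: ctggattgctGAACACAgttctggatt
SMAD4: cacctggaatGAACACAgcttctactg
ACVR1: gggactggagGAACACAgagaaatcct

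GREM1 site 1 lies at chr15:32731970-32731996 and site 2 at chr15:32740424-32740450 (GRCh38, plus strand), 735 and 9189 bases into a 3' UTR of 13862 bases. The SMAD3 site lies at chr15:67191971-67191997 (plus strand) and the BMPR2 site at chr2:202561850-202561876 (plus strand). The SMAD4 site is at chr18:51080155-51080181 (plus strand) and the ACVR1 site at chr2:157737241-157737267 (minus strand). SMAD4 and ACVR1 changed by -0.07 and -0.12 on the log2 scale in the shAKAP2 line, against -0.67 for SMAD3 and -0.33 for BMPR2. The other holders that were not called changed by -0.28 (ACVR2B), -0.21 (BMP1), 0.07 (BMP2) and 0.0 (TGFB3), so ACVR2B came close to BMPR2. The 9 members with the word had a median log2 change of -0.21 in the shAKAP2 line and 0.21 in the shScramble line, and the 33 without it had medians of -0.04 and 0.09. TGFBR3, SMURF2, PMEPA1 and BMP4, all lower in the shAKAP2 line, do not hold these letters in the region searched.

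**Figure D3:**
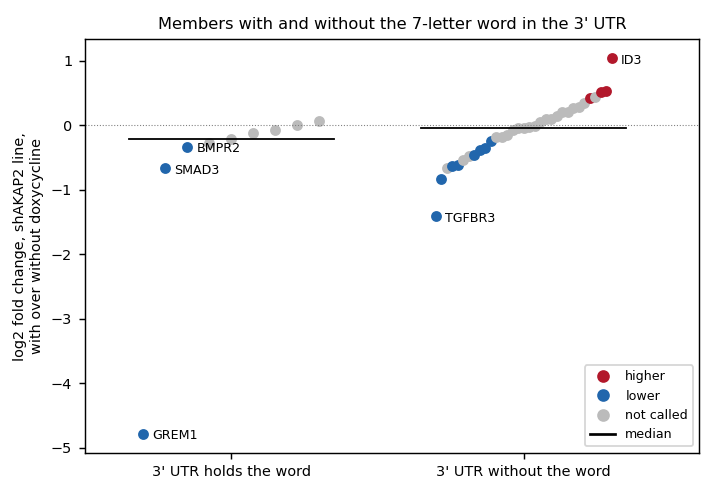
Doxycycline effect in the shAKAP2 line (log2 fold change) of the 42 members by whether the longest annotated 3' UTR holds the word GAACACA, each point a gene (red higher, blue lower, grey not called) and each line a median. The 9 members with the word have a median of -0.21 and the 33 without it a median of -0.04, with GREM1 farthest down.

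The lines also differed from each other with and without induction, among others in ligand genes. Without doxycycline, shAKAP2 against shScramble cells had 11 members higher and 6 lower, 40.5% of the 42, where 18% of all genes tested were called, 8.65% higher and 9.31% lower. With doxycycline 5 were higher and 13 lower, 42.9%, where 40.2% of all genes were called, 18.7% higher and 21.5% lower. Of the 9 ligands, 1 was higher and 5 were lower without the drug, and 0 were higher and 5 lower with it. The lines are separate cell populations, so hairpin and line cannot be told apart here, and of the 17 calls without doxycycline 7 held in every alternative. Without both shScramble replicate 1 libraries TGFB2 (log2 -0.19, adjusted p = 0.0194) and BMPR2 (-0.19, adjusted p = 0.0346) were also lower with doxycycline. TGFBR2, TGFBR3, LTBP4 and SMAD3 (0.16, 0.27, 0.42 and 0.18) were then also higher without it.

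Other measures separated the lines too. Without doxycycline the 4 mesenchymal markers of this cell line (VIM, CD44, AXL and SPARC) summed to 4270 to 4640 CPM in shAKAP2 libraries. In shScramble libraries they summed to 3530 to 3700 CPM (3 called higher in shAKAP2, 0 lower, none at 0). With doxycycline these sums overlapped, at 3990 to 4250 and 3310 to 4240 CPM (1 higher, 0 lower, none at 0). Mitochondrially encoded genes took 1.02% to 2.04% of the counts in shAKAP2 and 2.2% to 3.02% in shScramble libraries with doxycycline, and 1.86% to 2.38% against 2.41% to 3.62% without it. With doxycycline the 6 fibroblast markers summed to 19.3 to 21.6 CPM in shAKAP2 and 45.7 to 69.7 CPM in shScramble libraries (1 called higher, 3 lower, none at 0), and the 4 endothelial markers to 3.29 to 7.78 and 10.4 to 13.8 CPM (0 higher, 2 lower, none at 0). Without it the 6 blood cell markers summed to 2.8 to 4.64 CPM in shAKAP2 and 0.549 to 1.07 CPM in shScramble libraries (3 higher, 0 lower, CD3E at 0 in both), and the fibroblast markers to 21.1 to 30.7 and 24 to 46.3 CPM (2 higher, 1 lower, none at 0). The part of these in the line differences below, GREM1 and ENG included, was not tested.

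GDF15 had 1.32, 0.916, 1.69 and 1.65 CPM in induced shAKAP2 libraries, against 10.5, 3.84, 4.93 and 5.69 CPM in induced shScramble libraries. Without doxycycline it had 2.10, 2.19, 1.52 and 1.91 CPM in shAKAP2 and 8.43, 3.95, 3.94 and 3.19 CPM in shScramble libraries. Every shAKAP2 library lay under every shScramble library in both settings, and replicate 1 was the highest shScramble library in each. The log2 difference was -2.16 with (SE 0.336, adjusted p = 3.95e-05) and -1.34 without doxycycline (SE 0.323, adjusted p = 0.00785). Leaving out both shScramble replicate 1 libraries made it smaller, at -1.79 with and -0.93 without doxycycline, both still called.

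INHBB, which encodes the activin beta B subunit, had 0.947, 1.43, 0.489 and 0.769 CPM in induced shAKAP2 libraries, against 3.27, 2.55, 1.45 and 4.10 CPM in induced shScramble libraries. Without the drug it had 0.780, 0.269, 0.533 and 1.20 CPM in shAKAP2 and 5.72, 2.51, 1.66 and 2.78 CPM in shScramble libraries. The lines did not overlap in either setting (log2 -1.65 with and -2.15 without doxycycline, SE 0.443 and 0.448, adjusted p = 0.00587 and 0.00303). INHBA, which encodes the beta A subunit and was chosen after its values were seen, averaged 1.66 ± 0.522 CPM in shAKAP2 and 4.40 ± 0.910 CPM in shScramble cells with doxycycline. Without it the averages were 1.5 ± 0.474 and 4.28 ± 0.446 CPM (log2 -1.41 with and -1.51 without doxycycline, adjusted p = 0.000122 and 0.000368). The activin subunit genes thus stood lower in the shAKAP2 line whether or not the hairpin was induced, and their responses to the drug were not shown to differ between the lines (INHBA 0.10, SE 0.346, and -0.01 without the replicate 1 libraries; INHBB 0.51, SE 0.625).

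GREM1 changed sides. It was higher in shAKAP2 than in shScramble cells without doxycycline, at 110 against 24 counts over 4 libraries each (log2 2.21, SE 0.602, adjusted p = 0.0162). With doxycycline it was lower, at 3 against 66 counts, a ratio of 5.05% (exact 95% interval for counting error 1.02% to 15.4%; log2 -4.02, SE 0.823, adjusted p = 0.000583). BMPR2, ENG, ID2 and SKI, chosen after their values were seen, were also higher in the shAKAP2 line without the drug (log2 0.44, 1.90, 1.00 and 0.52) and were not called between the lines with it (-0.13, 0.09, -0.61 and 0.09). Without both shScramble replicate 1 libraries BMPR2 was called lower there (-0.19, adjusted p = 0.0346) and SKI was at -0.05. BMP4 and NOG were lower in shAKAP2 cells in both settings, with log2 differences of -1.05 and -0.82 with doxycycline and -0.36 and -0.38 without it. SMAD1 and SMAD7, likewise chosen after their values were seen, were higher in shAKAP2 cells in both settings, by 0.82 and 0.67 with and 0.54 and 0.56 without doxycycline. Without the drug the SMAD1 call was lost in 8 of 23 alternatives, and those of SMAD7, BMP4, NOG and ID2 in 4 each. These comparisons share their libraries with the doxycycline responses above.

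**Figure D4:**
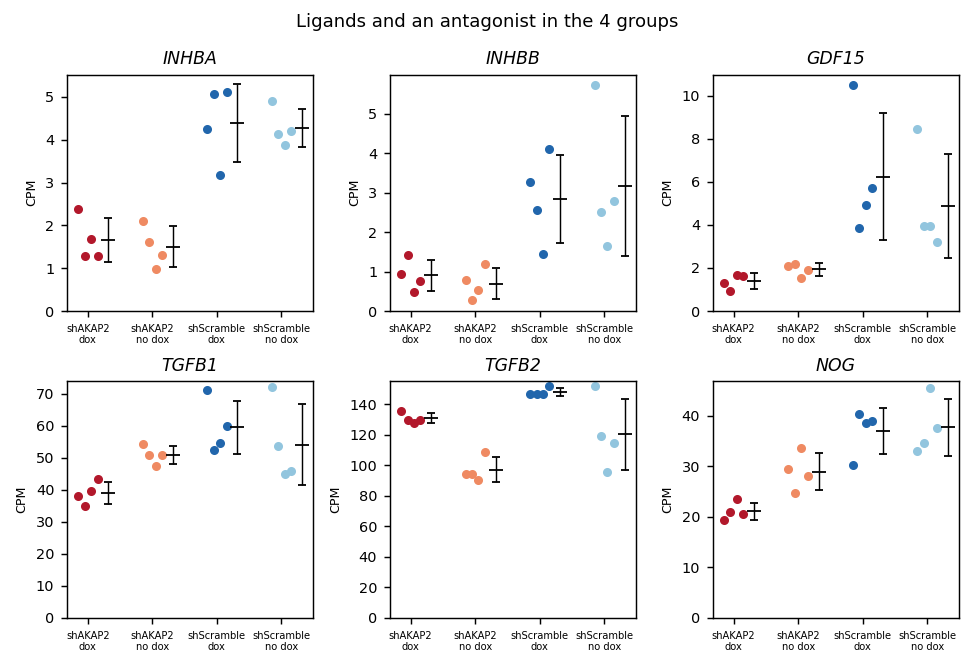
CPM in every library (points, linear axis from 0) with mean and SD (black) of the ligand genes INHBA, INHBB, GDF15, TGFB1 and TGFB2 and the antagonist gene NOG in the 4 groups. INHBA, INHBB and GDF15 sit lower in both shAKAP2 groups than in both shScramble groups, and TGFB1 and NOG are lowest in induced shAKAP2 cells, at 39.1 and 21 CPM on average.

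Other genes of the pathway, from a list of 123 in the table of which 91 were tested gave 20 higher and 22 lower in the shAKAP2 response, or 46.2%, where 28.3% of all genes were called. Their median log2 change was 0.04. In the shScramble response 1 was higher and 0 were lower, or 1.1%, where 1.08% of all genes were called. Among the lower genes with the smallest p were TWSG1, a BMP modulator, at 107 ± 11.6 CPM in induced and 218 ± 12.8 CPM in uninduced shAKAP2 cells (log2 -1.03), and GDF11, a ligand related to myostatin, at 5.49 ± 0.672 and 17.8 ± 1.31 CPM (log2 -1.70). LTBP1, a latent TGF-beta binding protein, stood at 15.2 ± 3.16 CPM in induced and 36.7 ± 4.47 CPM in uninduced cells (log2 -1.27), and XIAP, an adaptor between BMP receptors and kinase signalling, at 36.9 ± 1.51 and 57.4 ± 1.28 CPM (log2 -0.64).

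Among the higher genes with the smallest p were the TGF-beta targets TAGLN and COL4A1, and FSTL1, which is not a listed target. TAGLN (transgelin, an actin-binding protein) averaged 15.8 ± 1.08 CPM in induced and 6.88 ± 0.513 CPM in uninduced shAKAP2 cells (log2 1.20, SE 0.119, adjusted p = 1.8e-07), and COL4A1 (a basement membrane collagen) 52.1 ± 4.23 and 24.5 ± 1.10 CPM (log2 1.09). FSTL1, a secreted BMP modulator, averaged 481 ± 21.7 and 302 ± 12.1 CPM (log2 0.67), and it also rose in shScramble cells (log2 0.28, adjusted p = 0.015). For each of the genes named here from this list the difference between the lines' responses was called, from -1.54 for GDF11 to 1.46 for TAGLN on the log2 scale. Of the 26 tested targets on the list, 8 were higher and 4 lower in the shAKAP2 response, or 46.2%, where 13.1% of all genes were higher and 15.2% lower. Among the members, the TGF-beta target PMEPA1 was lower in both lines, so these targets did not share 1 direction.

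Positions and overlaps bear on the counts, since the sources used here do not say whether counting used strand. TGFBR3 lies at chr1:91680343-91906335, ID3 at chr1:23557918-23559794 and BMP4 at chr14:53949736-53958761 (GRCh38, minus strand), and their exons overlap no other annotated gene. SMURF2 (chr17:64542295-64662068, minus strand) shares 2.4% of its exon length with CEP95 on the opposite strand, PMEPA1 (chr20:57648392-57711536, minus strand) 6.1% with NKILA, SMAD3 (chr15:67063763-67195195, plus strand) 2% and GREM1 (chr15:32717974-32745107, plus strand) 1.29% with antisense genes. ACVR2A shares 7.98% with ORC4 and another gene, ENG 7.95%, TGFB1 6.64% with HNRNPUL1, and TGFB2 26.6% with TGFB2-OT1 on its own strand, so their counts are less certain.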

How the data were processed

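The authors deposited raw read counts, in whole numbers, for 57500 genes in 16 libraries (4 groups of 4). Libraries came from poly(A) RNA and the NEBNext Ultra II kit, per the labels' protocols. The submitters' processing notes name the aligner STAR (2.5.2b), the counter featureCounts, Subread (1.5.2) and the build GRCh38. No annotation release or strand setting is given in these sources.

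The test was the robust quasi-likelihood test of edgeR (version 4.0.16, with limma 3.58.1, R 4.3.3). It ran on the 15566 genes left by filterByExpr, with TMM scaling and 1 mean for each group over all 16 libraries (12 residual degrees of freedom). The coefficient of biological variation was 14.4%. Total counts per library are given in the report and set the precision. The contrasts were the doxycycline response of each line, the difference of these responses, and the shAKAP2 line against the shScramble line in either setting. Adjusted p-values are Benjamini-Hochberg values over all genes tested, and SE comes from the F statistic. The procedure was tested on simulated counts drawn independently for each library. These held no deviation shared between libraries, so that case was not covered. Counting intervals are exact and cover counting error only, since reads carry no molecular identifiers.

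Full values were given for members called in the shAKAP2 response or in the difference with an absolute log2 value of at least 0.5, for those called in the shScramble response, and for those called between lines at 2 or more. From the other pathway genes, up to 4 in each direction with the smallest p were named. Not every such gene is reported here. The members and lists were chosen with earlier results of these data known. Positions and 3' UTRs are from GENCODE release 29. Alternatives were DESeq2 1.42.0 and its size factors, limma-voom, no filter, only the groups compared, a replicate block and leaving out each library. Leaving out both shScramble replicate 1 libraries was chosen after seeing the data.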

Additional observations from a re-analysis of the deposited data

Results flagged for a closer look

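The doxycycline responses of the lines differed by the interaction test for 10 members. On the log2 scale (shAKAP2 response minus shScramble response) the difference was -6.22 for GREM1, -2.13 for TGFBR3, -1.80 for ENG, -1.61 for ID2, -0.70 for SMAD3, -0.69 for BMP4, -0.68 for SMURF2, -0.57 for BMPR2, -0.52 for TGFB1 and 1.17 for ID3.

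In 9 of 168 combinations of member and group (5.36%) a single library stood far from the other 3, where chance alone gives about 1 in 20, and 4 of the 9 were shScramble replicate 1 libraries. In those, BMP1 was at 46.0 CPM in replicate 1 with doxycycline (others 31.4 to 33.7), TGIF1 at 92.7 CPM in the same library (others 52.5 to 55.8), GDF15 at 8.43 CPM in replicate 1 without doxycycline (others 3.19 to 3.95) and ID3 at 10.8 CPM there (others 19.2 to 20.9). In induced shAKAP2 cells, ENG was at 1.43 CPM in replicate 2 (others 0.700 to 0.789), TGFBR3 at 9.79 CPM in replicate 2 (others 11.9 to 12.1) and GREM1 at 0.124 CPM in replicate 1 (others at 0). ACVR1 was at 32.6 CPM in uninduced shAKAP2 replicate 2 (others 31.5 to 31.6), and TGFB2 at 152 CPM in induced shScramble replicate 4 (the others at 147).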

How the results depend on the processing

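No called member changed direction in any alternative. Among differences that were not called, some turned sign without both shScramble replicate 1 libraries, for example that between responses for TGFB2 (0.13, then -0.01) and INHBA (0.10, then -0.01) and that between lines with doxycycline for SKI (0.09, then -0.05). Of the member calls, 13 of 15 in the shAKAP2 response, 2 of 2 in the shScramble response, 8 of 10 in the difference, 16 of 18 between lines with doxycycline and 7 of 17 without it held in every alternative. In the shAKAP2 response 7 members were higher, not 4, with only the groups compared or without both shScramble replicate 1 libraries. In the shScramble response the DESeq2 Wald test called 300 genes (2 members higher) and the fit of only the groups compared called 38, against 168. Without both shScramble replicate 1 libraries 1004 genes and 8 members (7 higher) were called there, and 4826 genes and 18 members (17 lower) in the difference, against 2802 and 10. Without the low-count filter 6 members, not 11, were higher between lines without doxycycline. The cause of these changes was not tested.

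Leaving out 1 library at a time gave 13 to 17 members in the shAKAP2 response, 2 to 6 in the shScramble response (1 to 5 higher, with 101 to 411 genes), 8 to 13 in the difference, 16 to 22 between lines with doxycycline and 7 to 18 without it (4 to 12 higher, 3 to 6 lower, 1674 to 3950 genes). The 6 came without uninduced shScramble replicate 1, and the 7 without uninduced shAKAP2 replicate 1. Same-numbered libraries correlated at -0.1 to 0.4 in their deviations from the group means. The range was -0.02 to 0.05 within the shAKAP2 line. It was 0.02 to 0.4 within the shScramble line, where replicate 1 gave 0.4 and replicate 3 gave 0.2. Whether the numbers pair the shScramble libraries was not tested, and the main fit did not use them. The libraries that correlated best with their own number were 5 of 8 in the shAKAP2 line, 4 of 8 in the shScramble line and 1 of 8 in either line comparison. The replicate block was common to both lines, so it does not describe a pairing within 1 line only. With a replicate block 16 members were called in the shAKAP2 response (6 higher, 10 lower), 2 in the shScramble response, 10 in the difference, and 18 and 15 between lines with and without doxycycline. Depth limits BMP2, BMP6, BMPR1B, ENG and GREM1, whose libraries held 0 to 45 counts. ENG, which was called in the difference, had 33 counts in all in uninduced shScramble cells.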
